A study of Saccharomyces cerevisiae with 48 samples.

Results

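The 10 outermost genes on the array at each of the 32 chromosome ends of budding yeast, 320 of the 6256 genes measured, were compared with the other 5913 nuclear genes. The members were read from the systematic names, which number the genes of a chromosome arm from the centromere outward, after genes of 16 symbol families (COS, AAD, ADH, HXT, SNZ, SNO, THI, FLO, PHO, ARN, FIT, FRE, AQY, PRM, ENB and AYT, 119 nuclear genes) had been left out. No expression value was used to choose them. Of the 320 members, 265 are listed in the R64 reference annotation, and in 233 neighbouring pairs listed there the outward order was the same in every pair. A level below is log2 of the Cy3 intensity minus the 75th percentile of its array, so that differences between 2 arrays are log2 fold changes, and levels of different genes are not compared.

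Total RNA came from haploid MATa cells in YPAD medium at an optical density of 0.6. The treated arrays, 30 min at 30 °C with 5 µM alpha factor, held 43 segregants of a YJM789 × S96 cross and the parental lines HS959 and S96. The untreated arrays held segregant SEG8, HS959 and S96 after the same incubation without the pheromone. Each strain was measured on 1 array per condition, the strain entry of every array names only the cross, how HS959 relates to YJM789 is not stated, and no deletion or marker is given for any strain, so replicate cultures are lacking and a p-value reflects the scatter among these arrays alone.

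The DNA near a chromosome end, the subtelomere, carries gene families copied between ends, among them Y' elements, which encode a helicase, and the seripauperin (PAU) cell wall protein genes. The silencing proteins Sir2, Sir3 and Sir4 keep the silent mating cassettes HML and HMR off and can repress genes close to telomeres. Subtelomeres differ between yeast strains in which genes they hold, and many of their genes serve sugar use, transport and resistance to toxic compounds. A low signal cannot tell a missing gene, a gene whose sequence differs from the probe and an unexpressed gene apart, and near-identical copies share signal.

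The median intensity of an array lay between 9804 and 23353, and the share of gene spots well above background was lowest in SEG14, at 94.0%, and highest at 99.9%. Of the 320 members, 243 (75.9%) were above background on all 48 arrays, against 94.2% of the other nuclear genes. All 4 parental arrays lay on slide 1 of 6 and both SEG8 arrays on slide 2. The 5 genes of the pheromone response list (FUS1, FUS2, PRM1, FIG1 and KAR4) and all 7 a-specific genes rose with alpha factor. The summed level of the a-specific genes, relative to the 75th percentile on a linear scale, was 33.4 to 54.5 in the treated and 13.5 to 19.4 in the untreated strains. Of 5 alpha-specific genes, which MATa cells keep low, 4 rose as well, and their sum was 1.54 to 3.73 in treated and 0.553 to 0.819 in untreated strains. Their part in the changes below was not tested.

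The members stood farther from the other nuclear genes in the comparisons between strains than in the response to the pheromone. Between the parents, 137 of 319 members tested (42.9%) differed, against 19.3% of the other nuclear genes (limma, Benjamini-Hochberg adjusted p under 0.05 over all genes). Over the 43 treated segregants, 189 of 314 members (60.2%) varied more than the residual spread of the paired arrays, against 30.1% (one-sided F test, the same adjustment). With alpha factor, 103 of 319 members (32.3%) changed, against 35.9%. Without SEG8 in the estimate of the residual spread, 85 of 314 members (27.1%) were called variable, against 5.92% of the other genes. Without HS959 the alpha factor test called 35 members (11%, against 13.6%) and without SEG8 34 (10.7%, against 9.34%).

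The sizes of the differences ran the same way. The median absolute difference between the parents was 0.62 for the members and 0.25 for the other nuclear genes, and 33.9% of members, against 7.02%, differed by at least 1 log2 unit. The median SD over the segregants was 0.66 for the members and 0.28 for the others, and 25.2% against 3.48% had an SD of at least 1. The median absolute change with alpha factor was 0.35 for the members and 0.25 for the others, although a smaller share of the members was called. The median residual SD was 0.18 for the members and 0.11 for the others, and its part in the shares called was not tested.

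The excess faded inward. Among the 2 outermost places of the ends, 47.6% of genes tested differed between the parents and 69.4% varied over the segregants. In places 3 and 4 these shares were 42.2% and 72.6%, in places 5 and 6 they were 51.6% and 59.7%, in places 7 and 8 they were 37.5% and 48.4%, and in places 9 and 10 they were 35.9% and 51.6%. Beyond the members, places 11 to 15 had 24.4% and 35%, and places 16 to 20 had 16.2% and 27.5%, near the 19.0% and 28.9% of genes more than 60 places inward. The share changed by alpha factor was 28.6% in the 2 outermost places, 41.9% in places 16 to 20 and 36% more than 60 places inward.

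**Figure D1:**
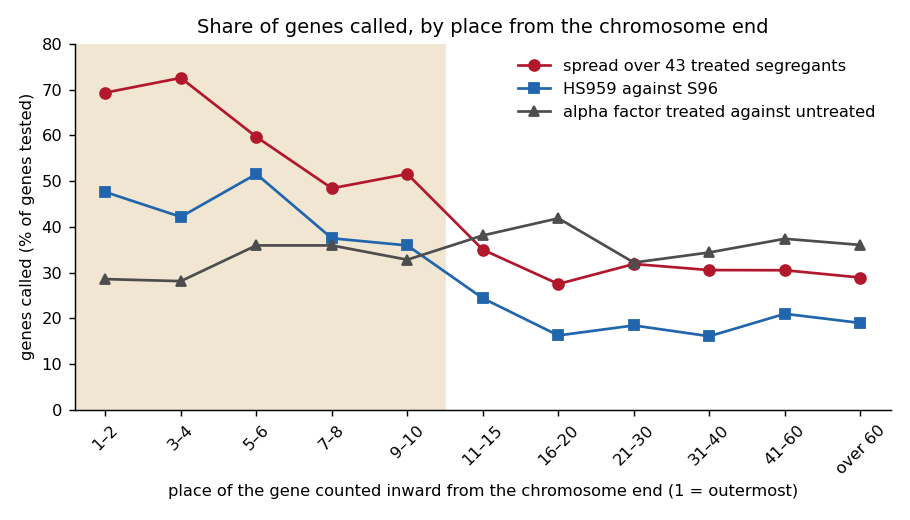
The share of tested genes called (percent, vertical axis) in each comparison, by the place of the gene counted inward from its chromosome end (1 is the outermost); shading marks the places of the members. The shares for segregant spread (69.4% in the 2 outermost places) and parental difference (47.6%) come down to 27.5% and 16.2% at places 16 to 20, while the share for alpha factor moves between 28.1% and 41.9% with no such decline.

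The difference between the parents was mostly one of lower signal in HS959. Of the 137 members called, 36 were higher (11.3% of those tested, against 6.38% of the other nuclear genes) and 101 lower in HS959 (31.7%, against 12.9%), and all 137 had the same sign in both conditions. That shared sign is largely built into the call, since the fit assumes the same difference in both conditions. With quantile normalization, 52 were higher and 76 lower. That scaling moved the median difference of the other nuclear genes from -0.09 to 0.04 and that of the members from -0.34 to -0.10, so the members' median stayed below that of the others. By end, 23 ends had more members lower than higher in HS959, 6 had more higher and 3 had equal numbers. The median difference of an end was below 0 at 29 of 32 ends, from -2.50 at XV left to 0.31 at XVI left. XV left and XIV right had 8 called members each, and at VII right all 7 called members were lower in HS959.

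**Figure D2:**
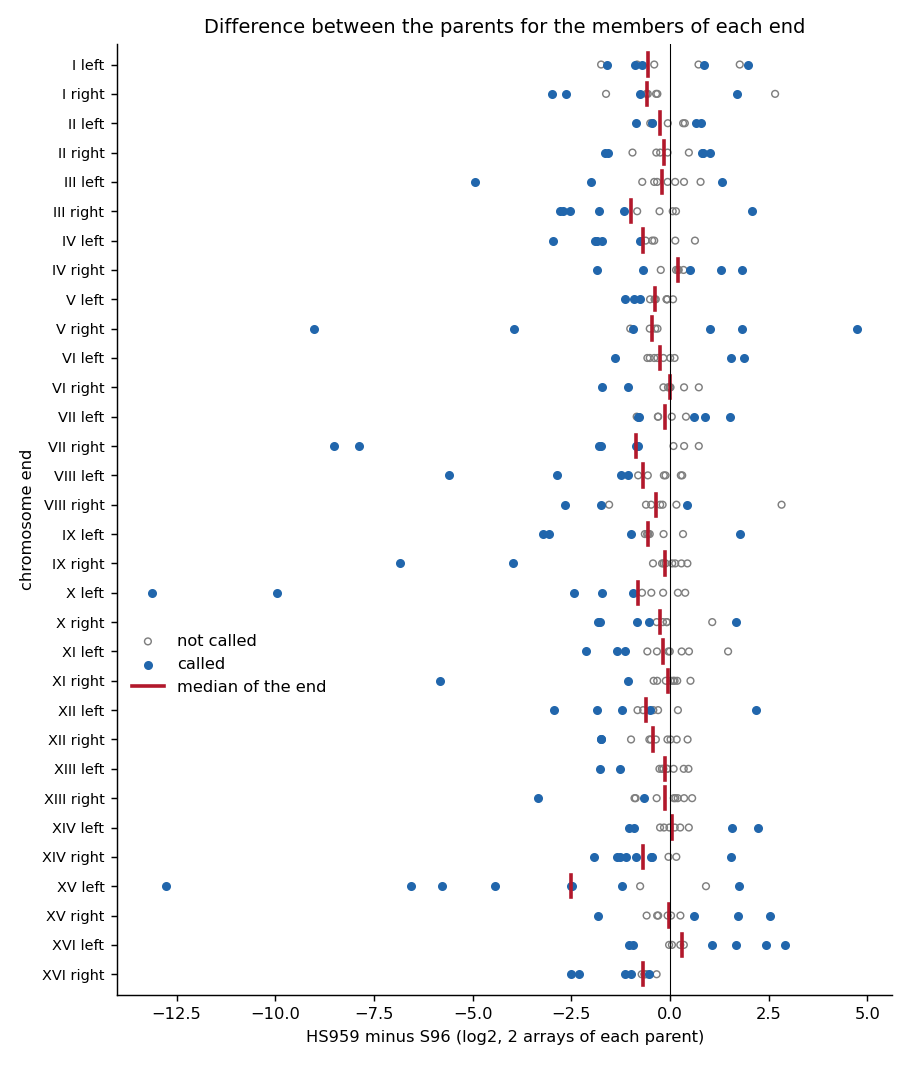
The HS959 minus S96 difference (log2, horizontal axis) of each member by chromosome end, filled where called and open where not, with a red bar at the median of the end. The medians run from -2.50 at XV left to 0.31 at XVI left, and the largest differences, down to -13.1, lie at a few ends (X left, XV left, V right and VII right).

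The largest difference was at X left. REE1, which encodes a regulator of enolase ENO1, had levels of -13.02 treated and -11.69 untreated in HS959, against 0.67 and 0.86 in S96. SEG8 was at S96's level, with 0.92 treated and 1.08 untreated. The difference was -13.12 ± 0.32 (SE; limma adjusted p = 0.000259), and the treated HS959 array was not above background for this gene. Its neighbour YJL218W differed by -9.96 ± 0.33 (adjusted p = 0.000484), with -12.21 on both HS959 arrays, of which the treated one was not above background, and -1.59 and -2.90 on those of S96. Where an HS959 array was not above background, here and below, the size of the difference is not exact. Further inward, IMA5, an isomaltase gene, was 3.27-fold lower in HS959 (adjusted p = 0.00214) and YJL215C was 5.36-fold lower (adjusted p = 0.0192).

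At XV left, 6 of the 10 members were lower in HS959 by more than 2 log2 units. BDS1, an alkyl sulfatase gene, was not above background on either HS959 array and lay at -0.65 treated and -1.95 untreated in S96, which makes it at least 1489-fold lower in HS959 (limma adjusted p = 0.000235). YOL163W, YOL162W and YOL160W differed by -6.55, -4.43 and -5.77, with YOL160W not above background on the treated HS959 array. YOL159C-A and CSS3, which were above background on all parental arrays, were 5.60-fold and 5.71-fold lower in HS959. Within the same end, HPF1, a cell wall mannoprotein gene, went the other way and was 3.36-fold higher in HS959 (adjusted p = 0.0408).

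The sugar genes included both directions. At VII right, MAL11, an alpha-glucoside permease gene, had -11.46 treated and -10.88 untreated in HS959, against -3.28 and -3.31 in S96 (difference -7.88 ± 0.17, limma adjusted p = 0.000235). MAL13, the activator gene beside it, differed by -8.51 ± 0.36 (adjusted p = 0.000876), and was not above background on the treated HS959 array. In SEG8 neither gene was above background in either condition. MAL31 and MAL32, permease and maltase genes of II right, were higher in HS959 by 1.01 and 0.84, while MAL33, the activator gene there, was lower by a difference of -1.64 (adjusted p = 0.0475), a call not made without SEG8 or with quantile normalization. Over the 16 sugar genes of the ends (MAL, IMA, MPH, SOR and DSF), 2 were higher and 8 lower in HS959, and 12 varied over the segregants, beside 11.3%, 31.7% and 60.2% of all members tested (6.38%, 12.9% and 30.1% of the other nuclear genes).

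At V right, neighbours differed in opposite directions. YER188W lay at -12.61 and -11.38 in HS959, against -2.27 and -3.69 in S96, treated first (difference -9.02 ± 0.65, limma adjusted p = 0.00308), with treated HS959 not above background. YER187W, 2 places inward, lay at -0.37 and -0.48 in HS959, against -5.66 and -4.69 in S96 (difference 4.75 ± 0.33, adjusted p = 0.00278), the highest positive difference among the members called. YER186C, next to it, was lower again in HS959, by a difference of -3.95 ± 0.10 (adjusted p = 0.000259).

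The listed transporter genes of the ends that were called were all lower in HS959. Of 11 genes on a list of transporters, 6 were lower and 0 higher in HS959 by limma, and 0 were higher at an unadjusted p under 0.05. Over all members tested 31.7% were lower and 11.3% higher, and over the other nuclear genes 12.9% and 6.38%. GEX1 at III left and GEX2 at XI right, near-identical genes for a glutathione exchanger, lay at -8.88 and -9.95 in treated HS959, against -3.90 and -4.05 in treated S96. These correspond to 30.7-fold and 56.7-fold lower signal in HS959. The arsenic resistance genes of XVI right, the activator ARR1, the arsenate reductase ARR2 and the arsenite exporter ARR3, were all lower in HS959, by differences of -0.53, -2.49 and -2.30. FET4, a low-affinity iron transporter gene of XIII right that is not on the transporter list, was 10.2-fold lower in HS959 (limma adjusted p = 0.00137). Also outside that list, ZRT1, a zinc transporter gene of VII left, was 1.52-fold higher in HS959 (adjusted p = 0.0284), and FEX1, a fluoride exporter gene of XV right, was higher by 0.62 (adjusted p = 0.0203). FEX2 of XVI left, the other FEX gene, had a difference of 0.35 that did not pass.

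A list of 13 genes, mostly of metabolism, held 9 that were lower and 1 that was higher in HS959, beside 31.7% lower and 11.3% higher over all members tested. The list also holds REE1, RDS1, VTH1 and VTH2, which are described elsewhere and are not enzyme genes, and REE1, VTH1 and VTH2 are among the 9. The gene that was higher, FDH1 of XV right, encodes a formate dehydrogenase. It lay at -3.32 treated and -4.07 untreated in HS959, against -6.27 and -6.21 in S96 (5.85-fold, limma adjusted p = 0.00593). FDH2 and YPL276W, next to each other at XVI left, were 5.44-fold and 7.53-fold higher. YPS6 of IX right, a yapsin protease gene, was 15.9-fold lower in HS959, and MHT1 of XII left, which acts in methionine recycling from S-methylmethionine, was 7.72-fold lower. YIR042C, 3 places outside YPS6, was not above background on either HS959 array and at least 42.4-fold lower there (adjusted p = 0.000876).

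The helicase genes of the Y' elements that carry a YRF1 symbol, YRF1-1 to YRF1-8, were all 8 lower in HS959 and split into 2 groups by size. YRF1-1, YRF1-4, YRF1-5 and YRF1-8 differed by -1.84 to -1.76, with levels of -0.95 to -0.88 in treated HS959 against 1.05 to 1.27 in treated S96 (limma adjusted p 0.00494 to 0.00857). YRF1-2, YRF1-3, YRF1-6 and YRF1-7 differed by -0.94 to -0.85, with levels of -0.13 to 0.08 in treated HS959 against 0.83 to 1.07 in treated S96 (adjusted p 0.00859 to 0.0279). Without SEG8, YRF1-6 had an adjusted p of 0.0528. The genes of a group followed each other over the segregants with r of at least 0.98, and as near-identical copies they cannot be told apart. With alpha factor 0 of the 8 passed, also at an unadjusted p under 0.05, with changes of -0.25 to -0.15 (limma adjusted p 0.191 to 0.403). These genes were chosen by symbol. YHR219W, YBL113C and YEL077C, outermost members with other names, were lower in HS959 too, by differences of -1.75, -0.87 and -0.76 (limma adjusted p 0.00874 to 0.0393). YIL177C and YJL225C, likewise outermost, differed by -0.16 and -0.17 and did not pass (limma adjusted p 0.303 and 0.259). No sequence was read to tell which of them hold Y' elements.

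Among the 32 outermost members, 31 were tested, of which 15 were lower and 4 higher in HS959. Over all members tested these shares were 31.7% and 11.3%, and over the other nuclear genes 12.9% and 6.38%. The 4 included YAL069W of I left (difference 1.98 ± 0.21, limma adjusted p = 0.00821) and YGL262W of VII left (1.51 ± 0.35, adjusted p = 0.0472). Of these 31 outermost genes 24 varied over the segregants, and 2 rose with alpha factor, YCL076W of III left and PAU24 of II right, while 0 fell by limma (2 at an unadjusted p under 0.05). Over all members tested 60.2% varied, 19.1% rose and 13.2% fell, and over the other nuclear genes 30.1%, 14.9% and 21%.

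Over the segregants, many members that divided the parents fell into 2 separate levels. REE1 was at -8.30 or below in 19 segregants and at -0.05 or above in 24, with a gap of 8.25 log2 units between them. HS959 and S96 stand here for the parents of the cross, which the labels name as parental lines. HO, an endonuclease gene of mating-type switching and no member, differed by -10.24 between them (limma adjusted p = 0.000562) and had an SD of 0.45 over the segregants. Each of the 38 members that differed by at least 2 log2 units between the parents was assigned, in each segregant, to the nearer treated parent. The 6 such members of XV left were on the same side in 43 of 43 segregants, 24 at the HS959 side and 19 at the S96 side. The same held for YJL218W, REE1 and YJL215C of X left (19 and 24), for YER188W, YER187W and YER186C of V right (20 and 23), and for MAL11 and MAL13 of VII right (20 and 23). A level below both parents counts to the lower one. For CSS3 and YOL159C-A of XV left, the HS959 side thus includes 13 segregants not above background. Over all pairs of the 38 members, 34 pairs of the same end shared the side in a median of 43 segregants (22 to 43), and 669 pairs of different ends in a median of 22 (14 to 42).

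Of the 669 pairs of different ends, 6 shared the side in at least 40 segregants. GEX1 and GEX2 shared the side in 42 segregants, YAR066W of I right and YHR214W of VIII right in 42, FDH1 and FDH2 in 41, and FDH1 and YPL276W, the neighbour of FDH2, in 40. YIL174W of IX left shared the side with DFP4 and with PXP3, neighbours at VIII left, in 41 each. Over the segregants r was 0.88 between DFP4 and YIL174W, and 0.78 between PXP3 and YIL175W, the neighbour of YIL174W. Whether these pairs share signal was not tested. Signals of near-identical copies such as GEX1 and GEX2 cannot be told apart. At III right the side was shared less along the end: YCR101C and YCR099C agreed in 41 segregants, but YCR101C and GIT1, 3 places apart, in 29. YCR097W-A, 4.20-fold higher in HS959, was nearer to S96 in all 43 segregants, whose levels of -3.91 to -2.21 all lay below the -0.80 of treated HS959.

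**Figure D3:**
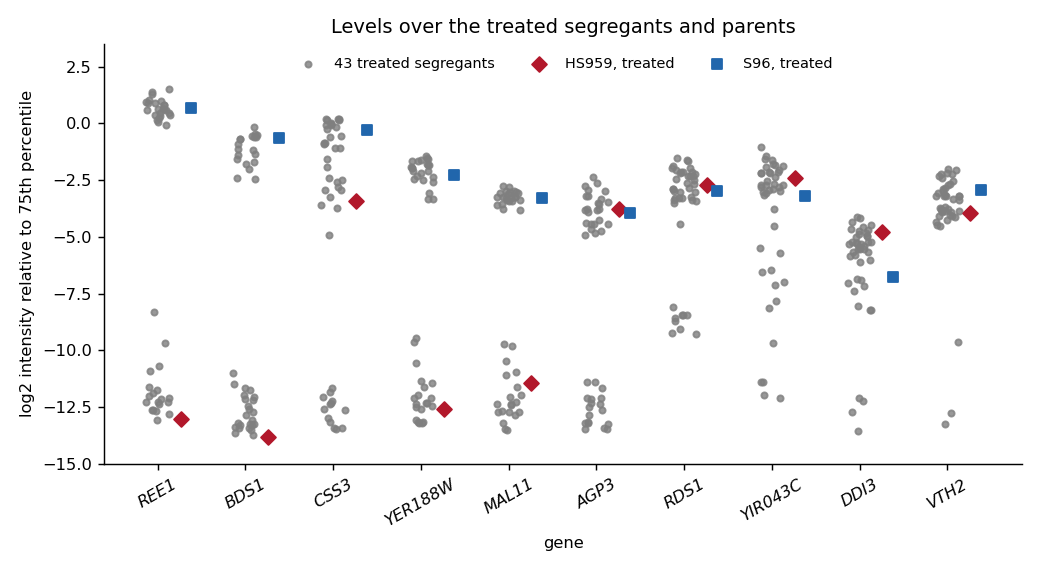
Levels (log2 intensity relative to the 75th percentile of the array, vertical axis) of 10 members in the 43 treated segregants (grey), HS959 (red diamonds) and S96 (blue squares), all treated. REE1, BDS1, YER188W and MAL11 fall into 2 levels near those of the parents, whereas AGP3, RDS1, YIR043C, DDI3 and VTH2 have segregants far below both parents.

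A second pattern was signal that both parents had and some segregants lacked. Of 308 members above background on all 4 parental arrays, 36 (11.7%) were not above background in at least 3 segregants, against 2.53% of the other nuclear genes. This count rests on the background flag alone and includes genes that were dim in a parent. MAL11, at -11.46 and -10.88 in HS959, is among the 36, as is YAL066W, at -11.39 to -10.30 on the parental arrays. At least 3 segregants lay more than 1 log2 unit below both treated parents for 100 of 320 members (31.2%, against 7.91%), and more than 1 unit above both for 53 (16.6%, against 4.21%). Without SEG14, the array with the smallest share of spots above background, the 3 counts were 31, 98 and 48.

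AGP3, an amino acid permease gene of VI left, showed it most plainly. It lay at -3.79 in treated HS959 and -3.93 in treated S96, and the parents differed by 0.01 ± 0.13 (limma adjusted p = 0.976). In 25 segregants it lay between -4.91 and -2.37, and in the other 18 it was not above background, at -11.41 or below. SEG8 was among the 18, with -13.21 treated and -13.46 untreated. DAK2, the dihydroxyacetone kinase gene next to AGP3, lay at -8.80 to -5.84 in the 25 and at -10.73 to -9.53 in the 18 without overlap, and in treated HS959 and S96 at -8.57 and -7.24. DDI3, 2 places outside AGP3 and named for its induction by DNA damage, was not above background in 4 segregants, all among the 18. DDI2 at XIV left, a near-identical copy of DDI3 (r = 0.998), was not above background in the same 4.

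At XV left the segregants formed 3 classes. In 19 segregants BDS1 and CSS3 were both above background, with CSS3 at -1.55 to 0.22, around the -0.28 of treated S96. In 11 BDS1 was not above background and CSS3 lay at -4.94 to -1.92, around the -3.43 of treated HS959. In the other 13 neither gene was above background, and CSS3 lay at -13.45 to -11.65, below either parent by more than 8 log2 units. YOL159C-A, beside CSS3, was not above background in the same 13 segregants.

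**Figure D4:**
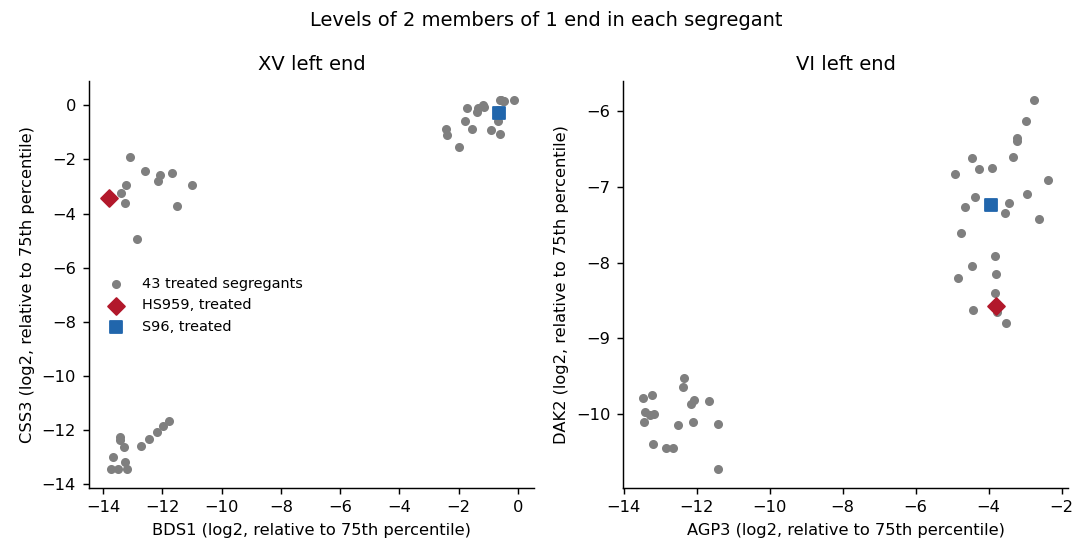
Levels (log2 intensity relative to the 75th percentile of the array) of BDS1 and CSS3 at XV left and of AGP3 and DAK2 at VI left, 1 grey point for each of the 43 treated segregants, with treated HS959 (red diamond) and treated S96 (blue square). XV left shows 3 separate clouds, of 19, 11 and 13 segregants, and no parent lies in the lowest; VI left shows 2, and both parents lie in the one of 25 segregants.

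Other members had the same form. RDS1, the outermost member of III right and a transcription factor gene for drug response, lay at -2.72 in treated HS959 and -2.96 in treated S96. Over the segregants 34 lay at -4.44 or above and 9 at -8.10 or below. YCR102C of the same end also had 9 segregants below a gap, of 2.93 log2 units. VTH1 of IX left and VTH2 of X left, near-identical genes related to a vacuolar sorting receptor (r = 0.993), were not above background in the same 3 segregants. YIR043C of IX right was more than 1 unit below both parents in 14 segregants and not above background in 4, and SEG8 lay at -12.08 treated and -11.68 untreated. The 3 enolase-related genes ERR1, ERR2 and ERR3 did not pass the test between the parents (adjusted p 0.5 to 0.832) but varied over the segregants with SDs of 1.02 to 1.14, ERR3 not when outlier spots were kept (adjusted p = 0.152).

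Members of 1 end were more alike over the segregants than members of different ends, and a correlation here is a description over 43 arrays that share slides and scaling. For 288 neighbouring pairs the median r was 0.20, and 75 (26%) exceeded 0.5. For all 1440 pairs of 1 end it was 0.10 and 200 pairs (13.9%) exceeded 0.5, and for 49600 pairs of different ends it was 0.06 and 3.61% did. A further setting left out symbols starting YRF1, PAU, DAN, TIR, ERR, IMA, MPH, SOR, VTH or GEX. There, 29.7% of neighbouring pairs and 3.34% of pairs of different ends exceeded 0.5. Other near-identical pairs, such as DDI2 and DDI3, stayed in. The highest median within an end was 0.44 at XVI right.

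Single segregants held many of the extreme values. SEG6 was the highest of the 43 for 48 members (15%, against 3.42% of the other nuclear genes) and SEG38 the lowest for 37 (11.6%, against 4.45%). In SEG6 the median deviation of the members of an end from their medians over segregants was 2.00 at XII right, 1.91 at V left and 1.43 at VI left, while SEG38 stood at -1.91 at VI left. The 48 members include all 8 YRF1 genes, at 2.38 to 2.84 in SEG6, with the next segregant at 1.36 or below. As near-identical copies these share signal and are not separate results. Which others of the 48 share it was not tested. Of the 8, 6 were called variable, with SDs of 0.52 to 0.53 over all 8 and of 0.40 to 0.45 without SEG6. With slide means removed, YRF1-3, YRF1-4 and YRF1-5 did not pass (adjusted p 0.058 to 0.0646), and without SEG8 in the residual spread none of the 6 did (adjusted p 0.0553 to 0.0905).

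With alpha factor, 61 members rose (19.1%, against 14.9%) and 42 fell (13.2%, against 21%), each with the same sign in HS959, S96 and SEG8. Here too the call favours a shared sign, since the fit assumes the same change in every strain. Without the symbol families dropped for the correlations above (PAU, YRF1 and others), 15.3% rose (against 15.1%) and 14.6% fell (against 20.9%). Without HS959 the counts were 22 higher (6.9%, against 5.97%) and 13 lower (4.08%, against 7.61%). Without SEG8 they were 11 higher (3.45%, against 3.82%) and 23 lower (7.21%, against 5.52%). The number called per end was 1 to 5. The largest change was that of YCL076W, the outermost member of III left, which the R64 table does not list. It lay at -0.89, -1.20 and -1.83 in treated HS959, S96 and SEG8, against -10.31, -11.54 and -13.48 untreated, with no overlap and the untreated SEG8 array not above background. The change was 10.47 ± 0.43 (SE, limma adjusted p = 0.000875), and 7.47 with another background correction. All 43 treated segregants lay between -3.19 and -0.73.

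Other large increases followed. SUL1 of II right, a sulfate permease gene, lay at -3.46, -3.56 and -2.46 in treated HS959, S96 and SEG8, against -9.03, -7.02 and -6.65 untreated (21.3-fold, limma adjusted p = 0.00439). PUG1, a gene for protoporphyrin uptake and haem transport, rose 14.8-fold (adjusted p = 0.00341), and its neighbour TOG1 at V right, an activator of genes for oleate use, rose 5.81-fold (adjusted p = 0.00272). ADY3, which acts in spore wall assembly, rose 5.75-fold, and PGU1, a pectin-degrading enzyme gene, 5.46-fold. SRO77, a gene of secretory vesicle docking, rose 5.09-fold. In these 6 genes every treated array of HS959, S96 and SEG8 was above every untreated array. Among the 43 treated segregants the lowest level was -5.30 for PGU1 and -3.30 for ADY3, each below at least 1 untreated array.

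Most of the seripauperin genes rose. Of 19 PAU genes at the ends 18 were called, with changes of 0.55 (PAU8) to 1.85 (PAU20), and PAU21 had a change of 1.53 that did not pass (limma adjusted p = 0.0511). The size differed by strain: the change was 0.72 to 2.47 in HS959 (median 2.12), 0.25 to 0.75 in S96 (median 0.35) and 0.65 to 2.90 in SEG8 (median 2.47). PAU24 lay at 0.40, -1.04 and 0.67 in treated HS959, S96 and SEG8, against -1.88, -1.40 and -2.23 untreated. The median HS959 minus S96 difference of the family was 1.14 in treated and -0.66 in untreated cells, so the fit's single parental difference does not describe it. The strain dependence itself was not tested, since each strain had 1 array per condition. Without HS959 or without SEG8, 0 of the 18 passed (3 of the 19 at an unadjusted p under 0.05 in either case, by limma), and without S96 all 18 did. Most of the family's genes are near-identical and cannot be told apart. Over the segregants the median r between them was 0.98 and the lowest 0.29, and PAU8, with the smallest change, was also the only one that differed between the parents (difference -0.88, adjusted p = 0.0186).

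**Figure D5:**
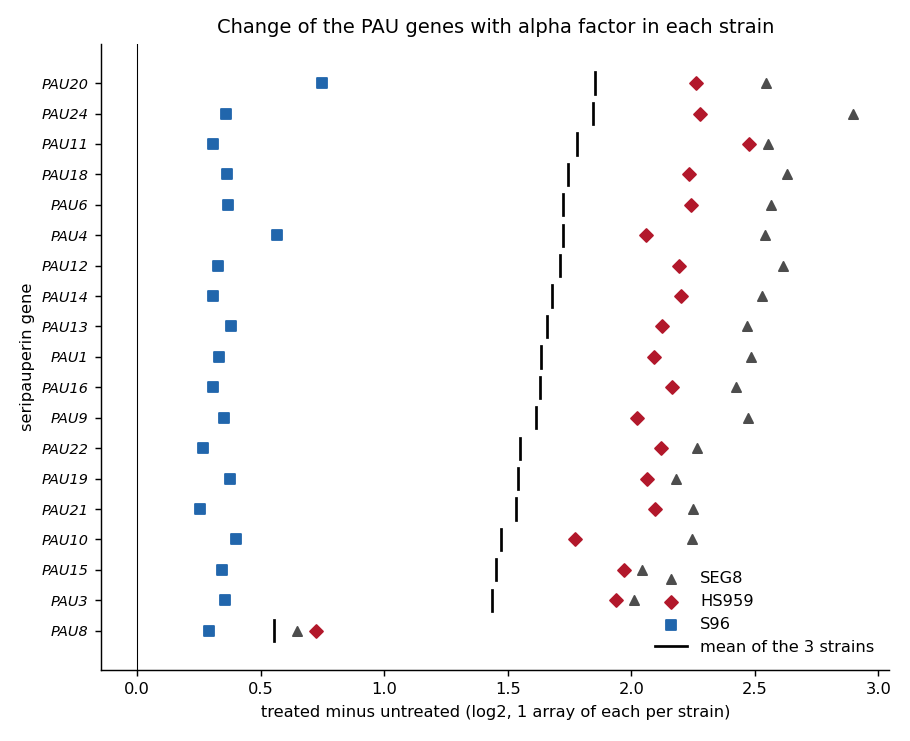
The change with alpha factor (treated minus untreated, log2, horizontal axis) of 19 PAU genes in SEG8 (grey triangles), HS959 (red diamonds) and S96 (blue squares), with a black bar at the mean of the 3 strains. S96 lies at 0.25 to 0.75 for every gene and below the other strains, which lie at 0.65 to 2.90.

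The decreases with alpha factor were largest for CSS1 and HPF1. HPF1 of XV left lay at -3.30, -4.37 and -0.85 in treated HS959, S96 and SEG8, against 0.96, -1.48 and 2.01 untreated (change -3.34 ± 0.31, limma adjusted p = 0.00437). CSS1 of IX left, a relative of HPF1 that followed it over the segregants (r = 0.992), changed by -3.45 ± 0.26 (adjusted p = 0.00268). In both genes the groups overlapped, since untreated S96 lay below treated SEG8, while each strain fell. The related pair YAR068W of I right and YHR214W-A of VIII right changed by -3.11 and -3.08, and YAR066W and YHR214W beside them by -2.28 and -2.39; these 4 did not pass without SEG8 (adjusted p 0.0684 to 0.0917). I right had 5 members lower and 0 higher, the lowest median of an end (-0.57).

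Smaller decreases followed. FET4 fell 2.76-fold and ZRT1 2.08-fold. CHA1, which breaks down serine and threonine, fell 3.45-fold and VAC17, a vacuole inheritance gene beside it at III left, 3.15-fold. The 2 FEX genes for fluoride export changed by -0.47 and -0.43, with adjusted p of 0.0172 and 0.0166 by limma.

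The silent cassettes lie among the members of chromosome III. HMRA1 shares its sequence with the mating-type locus expressed in MATa cells, so its signal cannot be told from that of the locus. HMLALPHA1 and HMLALPHA2 belong to the alpha cassette, which is not the one at a MATa locus, and the source of their signal was not tested. HMLALPHA1 lay at -2.23, -3.53 and -3.37 in treated HS959, S96 and SEG8, against -2.59, -3.94 and -4.02 untreated (change 0.48 ± 0.09, limma adjusted p = 0.0225). It was also higher in HS959 by 1.32 (adjusted p = 0.00491). HMRA1 rose by 0.65 (adjusted p = 0.0297), and HMLALPHA2 had a change of 0.43 that did not pass (adjusted p = 0.055). Neither rise passed without HS959 or without SEG8 (adjusted p 0.0661 to 0.101). Without the strain term neither passed (limma adjusted p 0.0889 for HMRA1 and 0.663 for HMLALPHA1). HMLALPHA1 also did not pass without S96 (limma adjusted p = 0.0549).

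Genes of the silencing machinery were read from a list of their own. Of 28 listed silencing genes on the array, 0 passed the limma test between HS959 and S96 (7 had an unadjusted p under 0.05), and 11 varied over the segregants, beside 19.3% and 30.1% of the other nuclear genes. With alpha factor 3 rose and 12 fell, beside 14.9% and 21% of those genes, among them SIR4 (-0.68, adjusted p = 0.00621) and SIR3 (-0.30, adjusted p = 0.037), whereas SIR2 had a change of -0.08 (adjusted p = 0.578). SIR1 and RPD3, which are also members, were not called in the treatment or parental test. Of 14 telomere maintenance genes 1 was lower in HS959, the telomerase subunit gene EST1 (difference -3.49, adjusted p = 0.00609), and with alpha factor 2 rose and 6 fell. Nothing particular to either list was tested.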

How the data were processed

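Cy3-labelled RNA of 48 samples was hybridised to 1-colour Agilent arrays. The deposited files give spot intensity, which Agilent Feature Extraction 10.5.1.1 had background-subtracted, per the file headers, for array design 016322. Version 9.1 is named in the submitters' processing notes. The authors' value table held the same linear intensity in 626304 of 626304 cells. Of 13048 spots per array, 536 control spots and those marked as outliers were left out, and the 2 spots of each gene were averaged. The log2 values minus each array's 75th percentile were computed here. In members, 3 gene values had no usable spot. No column lacked a sample.

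Groups followed the labels. Alpha factor and parental effects were coefficients of 1 limma 3.58.1 fit (R 4.3.3, lmFit and eBayes, two-sided) on 6 arrays of HS959, S96 and SEG8, with strain as a term because each strain was measured in both conditions; the prior added 2.62 degrees of freedom to 2 residual ones, and the fit assumes the same parental difference in both conditions. Tested genes had 2 or more of the 6 arrays (1 member removed), or 22 or more of the 43 segregants (6 removed), well above background. Segregant variance was tested against the moderated residual variance with a one-sided F test, where the residual comes from paired arrays and not from repeated cultures. Where no array of a group was above background, the fold is a lower bound, computed with, on each dim array, the higher of the gene's own value and the lowest signal above background. Adjusted p-values are Benjamini-Hochberg over all genes tested. The fits and F test were tested on simulated data. Python 3.11.15 with numpy 2.4.6, pandas 2.3.3 and matplotlib 3.10.9 did the rest.

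Alternatives were quantile and median scaling, normexp background correction (on the median spot signal with an offset of 50), outlier spots kept, other filters, each strain left out, no strain term, slide means removed, and other readings of the membership rule. Leaving out SEG14 and the settings for correlations were added after seeing the data. Genes were named by rank (12 largest changes each way in each comparison, 20 largest SDs), by lists of Y' helicase, PAU, cassette, sugar, enolase-related, transporter and metabolic genes, and as outermost or like-signed neighbours. DAK2, DDI2, HO, the ARR and FEX genes and the parental difference of ZRT1 were named after their values were seen. The members and the lists were chosen with earlier results of these data known. Names come from the array's own annotation (sacCer1, per the file headers), and no coordinates or sequences are given.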

Additional observations from a re-analysis of the deposited data

How the results depend on the processing

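No value recomputed for a gene named by the rules turned its sign under the alternatives run. The members' median change with alpha factor, -0.03, was 0.02 with quantile scaling and without HS959, and the median parental difference of the other nuclear genes, -0.09, was 0.04 with quantile scaling. The share of members called with alpha factor, below that of the other genes as reported, was above it with quantile scaling (37.6%, against 36.2%), without S96 (27.9%, against 25.8%) and without SEG8 (10.7%, against 9.34%). Without the strain term 18 rose (5.64%, against 5.11%) and 4 fell (1.25%, against 5.63%). The alpha factor count of 103 members was the most dependent: leaving out 1 strain gave 34 (SEG8), 35 (HS959) or 89 (S96), and without the strain term that pairs each treated array with its untreated one (no replicate block) it was 22, against 102 to 120 under the scalings, background correction and spot filters. The segregant count of 189 was 85 to 191 when a strain was left out of the residual spread (85 without SEG8) and 152 with slide means removed (48.4% of members, against 16.7% of the other nuclear genes). The parental count of 137 was 116 without SEG8 (36.4%, against 10.2%) and 127 to 140 under the other processing settings. With 15 genes per end, 36.7% of those tested differed between the parents (against 19.2%) and 51.7% varied over the segregants (against 29.9%). Of the values recomputed for the genes named by the rules, 377 of the alpha factor values stayed called and 101 did not, as did 352 and 16 of the parental and 528 and 52 of the segregant values. Dim genes limit what can be said: the change of YCL076W was 10.47 or 7.47 depending on the background correction, and levels near -12 carry no order.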
